A study of Rattus norvegicus with 20 samples.

Results

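The outflow tract of the right ventricle was compared with its apex within rats that had 6 weeks of chronic pulmonary embolism (PE). Of the 20 Affymetrix expression arrays of the series, 10 were used, chosen by their titles: 5 of PE outflow tract and 5 of PE apex. An outflow array and an apex array with the same replicate number were taken as 1 rat, so the comparison rests on 5 paired differences. Male Sprague Dawley rats of about 350 g had received polystyrene microspheres of 25 micron, 2000000 per 100 g of body weight, in 0.01% Tween-20, given into the right jugular vein. Control rats (vehicle), also 5 arrays per region, had received 0.01% Tween-20 alone, and hearts of both groups were perfused briefly and divided at week 6. A text field on animal handling names the vehicle for the PE samples too, while their titles and treatment fields name the microspheres, and the groups follow these. The labels call the replicates biological, but do not state that equal numbers are the same animal. Each sample was a piece of whole tissue from a single time point, so it held muscle cells, connective tissue, vessels and nerves in unknown shares.

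The microspheres lodge in the lung circulation, and the right ventricle then pumps against a higher resistance. The thin-walled right ventricle responds to such pressure load with wall stress, muscle growth, inflammation and fibrosis. The outflow tract (the base, or infundibulum) is the muscular funnel below the pulmonary valve and comes from the embryonic conus, and the apex is the trabeculated tip.

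Values are signals of probe sets (sets of probes for 1 transcript). They were taken as linear and scaled to a common mean, since the trimmed mean was alike on every array. A difference is the outflow minus the apex value of log2(signal + 16) in a rat, so that 1 on this scale is a 2-fold higher value of the signal plus 16, and low genes are understated. It is given as the mean over the 5 rats ± its standard error (SE) from limma. A gene was called higher or lower in the outflow tract at a limma adjusted p under 0.05 over all 31042 probe sets, and each of 14217 genes was read from its brightest probe set. Signals of an array are listed in the order of rats 1 to 5. In pieces of tissue, fewer cells of a type and less RNA per cell cannot be told apart.

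The PE outflow arrays were the least alike. Each correlated with the others of its group at a mean r of 0.929 to 0.963, against 0.962 to 0.971 in the other 3 groups. The 3' to 5' signal ratio of the GAPDH control probe sets, which grows as transcripts lose their 5' ends, was 1.47 to 1.67 in the PE apex and 1.38 to 1.83 on all vehicle arrays. In the PE outflow tract it was 6.12 in rat 2, 2.20 in rat 4 and 2.34 in rat 5, but 1.71 in rat 1 and 1.70 in rat 3. Rat 2 also had the brightest probe set of all arrays, at a signal of 112199 against 41278 to 48010 in the other PE outflow arrays. The part of RNA length in the differences was not tested, and counts from a fit with the GAPDH ratio as a covariate are given at the end. For named genes whose mean in rats 1 and 3 differed from that of all 5 rats by over 1.5 times, both values are given.

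**Figure D1:**
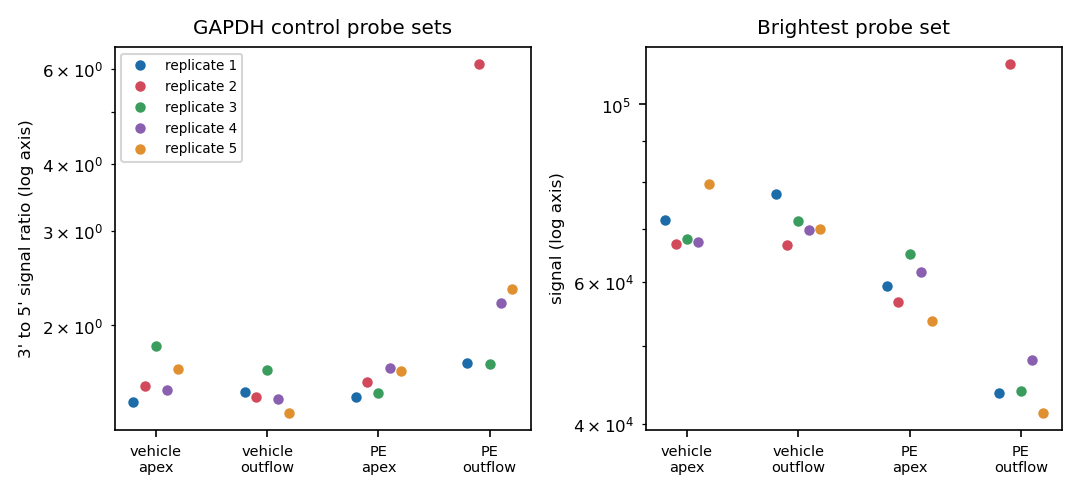
Left, 3' to 5' signal ratio of the GAPDH control probe sets on a log axis, 1 point per array, in the 4 groups of 5 arrays; right, the highest signal of each array on a log axis. Colours give the replicate number. Among the PE outflow arrays, rat 2 stands apart in both panels, at 6.12 and 112199, and rats 4 and 5 are raised on the left, at 2.20 and 2.34.

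The outflow tract and the apex of PE rats differed over a large share of the array. By limma on the 5 paired differences, 6477 of 31042 probe sets (20.9%) were called. Read by gene, 3843 of 14217 (27.0%) were called, 2331 higher in the outflow tract (16.4%) and 1512 lower (10.6%), of which 977 and 614 differed by at least 2-fold. All 5 outflow signals lay above all 5 apex signals for 2338 genes (16.4%) and below them for 1581 (11.1%). The median difference over all genes was 0.09. These shares of all genes, 16.4% called higher and 10.6% called lower, are the ones to set beside each count of list members below. Centring each array on its median moved the share of called probe sets that were higher from 57.3% to 43.2%, so the balance of the directions depends on the scaling. Leaving out 1 rat gave between 2415 called probe sets (without rat 5) and 7443 (without rat 2), with 2508 without rat 4, 3659 without rat 3 and 4159 without rat 1. With rats 1 and 3 alone no probe set was called by limma, although 6648 had an unadjusted p under 0.05.

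The same comparison in vehicle rats called 0 of 31042 probe sets (0.00%) by limma, and 1513 (4.87%) had an unadjusted p under 0.05, against 10933 (35.2%) in PE rats. A mean difference of at least 1 in size was seen for 1678 of the 14217 genes (11.8%) in PE rats and for 46 (0.324%) in vehicle rats. The test of the difference itself, PE against vehicle over the 10 paired differences, called 5121 probe sets (16.5%; 3232 without PE rat 5, 3241 without PE rat 4, 434 with PE rats 1 and 3 alone) and, by gene, 3110 (21.9%), 1814 higher in PE rats (12.8%) and 1296 lower (9.12%). At an unadjusted p under 0.05 it marked 9440 probe sets (30.4%). The direction was shared by single rats. Of the 2331 genes called higher, between 2302 (rat 2) and 2330 (rat 5) were higher in a given PE rat, with a median between 0.74 (rat 1) and 1.11 (rat 5). Of the 1512 genes called lower, between 1482 (rat 2) and 1512 (rat 3) were lower, with a median between -0.68 (rat 1) and -1.23 (rat 5). These rats chose the genes, so the counts describe how even the differences were. In the vehicle rats, which took no part in that choice, the same genes had medians of -0.01 and 0.02.

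**Figure D2:**
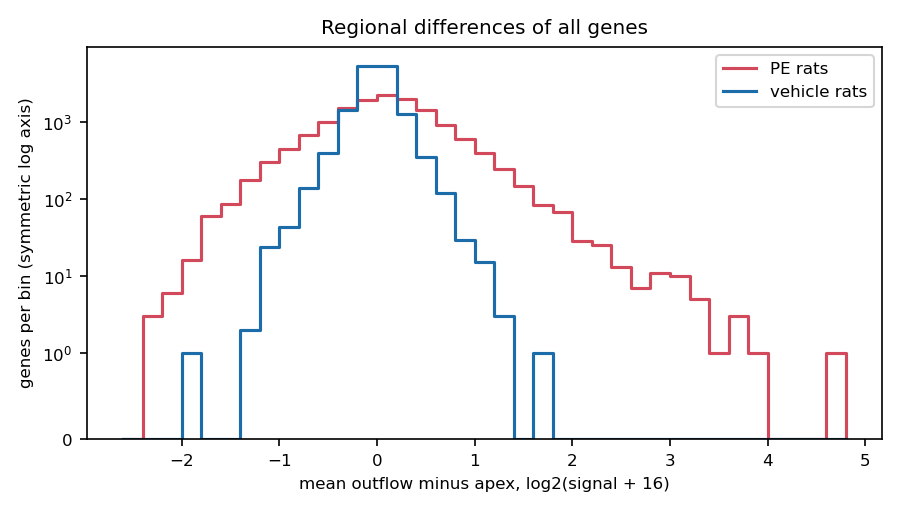
Mean outflow minus apex difference of each of 14217 genes, on the log2(signal + 16) scale, as the number of genes per bin of 0.2 on a symmetric log axis, for 5 PE rats and 5 vehicle rats. The vehicle distribution is narrow, with 46 genes at a size of at least 1, and the PE distribution is wide on both sides, with 1678.

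The 12 largest rises included genes of the extracellular matrix, of smooth muscle and of fat. Differences in PE rats given from here on were called by limma unless said not to be. Comp encodes cartilage oligomeric matrix protein, a glycoprotein of tendon and cartilage that binds collagen. Its signal in the apex was 26.8, 29.5, 31.8, 41.6 and 41.6, and in the outflow tract it was 1388, 347, 2638, 1740.2 and 2130.2. Every outflow array was far above every apex array, and rat 2 had the smallest outflow signal. The difference was 4.80 ± 0.38 (n = 5 pairs, limma adjusted p = 0.00327), a 27.8-fold higher signal plus 16, while vehicle rats had -0.42. Grem1, a secreted antagonist of bone morphogenetic proteins (BMPs), had 17.5, 26.4, 5.43, 16.6 and 3.42 in the apex and 108, 151, 770.1, 969.7 and 504 in the outflow tract. The groups did not overlap, with rats 3 to 5 well above rats 1 and 2, at a difference of 3.75 ± 0.57 (adjusted p = 0.00828). Cpxm2, a secreted carboxypeptidase-like protein, differed by 3.46 ± 0.25 (adjusted p = 0.00304), with 72.1 to 109 in the apex and 521 to 1952 in the outflow tract. Ccn3, a matricellular protein of the CCN family, differed by 3.25 ± 0.47 (adjusted p = 0.00759).

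Cnn1 and Actg2, which encode calponin 1 and the gamma actin of smooth muscle, were higher in the outflow tract of every PE rat. Cnn1 had 92.3, 223, 88.4, 139.6 and 184 in the apex and 718, 1172, 1878, 2194 and 1829 in the outflow tract, without overlap, and differed by 3.26 ± 0.28 (adjusted p = 0.00347). For Actg2 the signals were 330.4 to 814 in the apex and 2178 to 10600.0 in the outflow tract, a difference of 3.19 ± 0.40 (adjusted p = 0.00639). Vehicle rats had 0.84 and 0.79 for these 2 genes, neither called, and the PE differences exceeded those by 2.42 ± 0.72 and 2.40 ± 0.68 (adjusted p = 0.043 and 0.035). Rbp4, the plasma carrier of retinol, which liver and fat secrete, differed by 3.92 ± 0.41 (adjusted p = 0.0049), with 24.3 to 114 in the apex and 518 to 1787 in the outflow tract. Scd, a desaturase of fatty acid synthesis, was low in the apex, at 8.90, 7.54, 4.72, 4.88 and 3.35, and reached 164, 223, 756, 235 and 256 in the outflow tract (3.76 ± 0.32, adjusted p = 0.00347). Car3, a carbonic anhydrase abundant in fat cells, differed by 3.62 ± 0.55 (adjusted p = 0.0083). It also had 1.26 in vehicle rats, and its PE difference was not shown to be larger than that (2.35 ± 0.91, adjusted p = 0.106).

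Cartilage and bone genes among the largest rises varied widely between rats. Col2a1, the main collagen of cartilage, had 37.3, 37.2, 49.7, 4.71 and 68.7 in the apex and 2596, 66.7, 2222, 205 and 357 in the outflow tract. Rats 1 and 3 were high and rat 2 overlapped the apex arrays, so its difference of 3.38 ± 0.70 (adjusted p = 0.0181; 5.35 in rats 1 and 3) was uneven, and its call was lost without rat 3 or rat 4 (2.82 to 4.06 over the fits that left out 1 rat). Its 2 dimmer probe sets were not called, at 0.54 and -0.15. Ibsp, bone sialoprotein, had 37.4, 5.29, 11.0, 4.13 and 8.68 in the apex and 1230.2, 5.88, 245, 333 and 477 in the outflow tract, at 3.26 ± 0.64 (adjusted p = 0.015). Rat 2 showed next to no difference in Ibsp, and the call was lost without rat 4 or rat 5 (2.94 to 4.06). Coch, which encodes the extracellular protein cochlin, was higher in all 5 rats, from 0.39 in rat 5 to 5.44 in rat 3, and lost its call without rat 1, rat 3 or rat 4 (2.85 to 4.12).

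Promoter windows of 2 of these genes are printed because they hold TGANTCA, a loose form of the AP-1 motif, the site of the Fos and Jun factors. Here N is any base, while the AP-1 consensus has C or G there. The match of Rbp4 has G at this base, and that of Actg2 has T, outside the consensus. They were chosen after the matches were seen. RefSeq windows from 250 bases before to 50 after the gene start (build GRCr8) were given for 9 of the 12 genes. The motif TGANTCA, searched on both strands, was in 2 of these 9 windows (22.2%) and in 635 of the 11700 windows of measured genes (5.43%). In the smooth muscle list described below it was in 2 of 6 windows of members called higher and in 2 of 5 of the other members. An excess of the motif was not tested. The 250 bases before the start are shown 5′ to 3′ on the gene's strand, with the match in capitals: Rbp4 lies at chr1:245313552-245313801 on the minus strand, with the match beginning 164 bases before the start, and Actg2 at chr4:117594040-117594289 on the minus strand, with the match 222 bases before.
Rbp4: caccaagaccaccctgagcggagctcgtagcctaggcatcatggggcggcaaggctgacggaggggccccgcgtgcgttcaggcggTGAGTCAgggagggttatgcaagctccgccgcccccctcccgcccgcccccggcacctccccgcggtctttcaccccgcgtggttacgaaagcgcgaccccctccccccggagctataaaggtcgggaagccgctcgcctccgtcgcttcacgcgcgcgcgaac
Actg2: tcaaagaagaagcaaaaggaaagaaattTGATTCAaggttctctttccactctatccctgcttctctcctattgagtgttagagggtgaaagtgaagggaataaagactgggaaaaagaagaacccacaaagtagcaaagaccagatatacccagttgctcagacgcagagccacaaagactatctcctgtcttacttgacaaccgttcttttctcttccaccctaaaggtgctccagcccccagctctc
A match describes letters in the window and no bound factor. The E-box CACGTG was in 0 of the 9 windows (8.94% of the windows of measured genes), the TEAD motif GGAATG in 1 (11.7%) and the estrogen-related receptor element TCAAGGTCA in 0 (0.214%), all on both strands.

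The 12 largest falls included genes of muscle signalling, ion transport and metabolism. Prkaa2 encodes the catalytic alpha 2 subunit of AMPK, the energy sensor of striated muscle. Its signal was 3144, 2222, 2915, 2638 and 3100.4 in the apex and 1120.0, 883, 774, 382 and 178 in the outflow tract. All outflow arrays lay below all apex arrays, rat 5 by the most, and the difference was -2.28 ± 0.39 (limma adjusted p = 0.0108), against 0.25 in vehicle rats. Akap6, which anchors protein kinase A at the nuclear envelope and sarcoplasmic reticulum, had 722, 713, 828, 667 and 745 in the apex and 356, 61.1, 261, 114 and 76.4 in the outflow tract, without overlap. The difference was -2.25 ± 0.34 (adjusted p = 0.00824), and -1.30 in rats 1 and 3, while its dimmer probe set had -0.57 and was not called. Kcnh2, the channel of the rapid delayed rectifier potassium current, differed by -2.11 ± 0.38 (adjusted p = 0.0123) and by -1.05 in rats 1 and 3. Fgf16, a fibroblast growth factor of heart muscle, had 676, 619.9, 507, 627 and 675 in the apex and 199, 163, 175, 89.2 and 98.4 in the outflow tract. Its groups were also apart in every rat, at -2.04 ± 0.22 (adjusted p = 0.0049).

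Among the other large falls, Aqp7, a glycerol channel, fell from 4731 ± 319.7 (SD, n = 5) to 1212 ± 565, a difference of -2.07 ± 0.26 (-1.36 in rats 1 and 3). Txlnb, a taxilin of striated muscle, differed by -2.01 ± 0.26 (-1.32 in rats 1 and 3), and its other probe set was called lower too, at -1.27. Phlda1, a pleckstrin homology-like protein, differed by -2.08 ± 0.22. Crybb1, best known as a crystallin of the lens, had 173 to 495 in the apex and 2.86 to 94.2 in the outflow tract, and Slc4a1, the anion exchanger of red cells, had 159.9 to 375 in the apex and 11.3 to 109 in the outflow tract. The differences of Crybb1 and Slc4a1 were -2.23 ± 0.30 and -1.97 ± 0.35, but -1.47 and -0.99 in rats 1 and 3. Klhl38 and Magix differed by -2.09 and -1.96, and the predicted gene LOC100909396 by -1.99. In all 12 largest falls, all 5 outflow arrays lay below all 5 apex arrays, and rats 4 and 5 had larger falls than rats 1 and 3 in each of them. Rats 4 and 5 also had a higher GAPDH ratio than rats 1 and 3, but rat 2 had the highest, 6.12. Rat 2 had the smallest fall of Prkaa2, Klhl38 and Magix, the largest of Akap6 and Kcnh2, and an intermediate fall of the others. With the GAPDH ratio as a covariate, Kcnh2 (-1.39) and Slc4a1 (-1.74) were no longer called, and the others of these falls kept their calls. The slope of this covariate rests mostly on rat 2, so that fit cannot adjust for the ratios of rats 4 and 5. The part of RNA length was not tested. The differences from vehicle rats were called for all 12 falls, between -2.53 (Prkaa2) and -1.84 (LOC100909396).

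**Figure D3:**
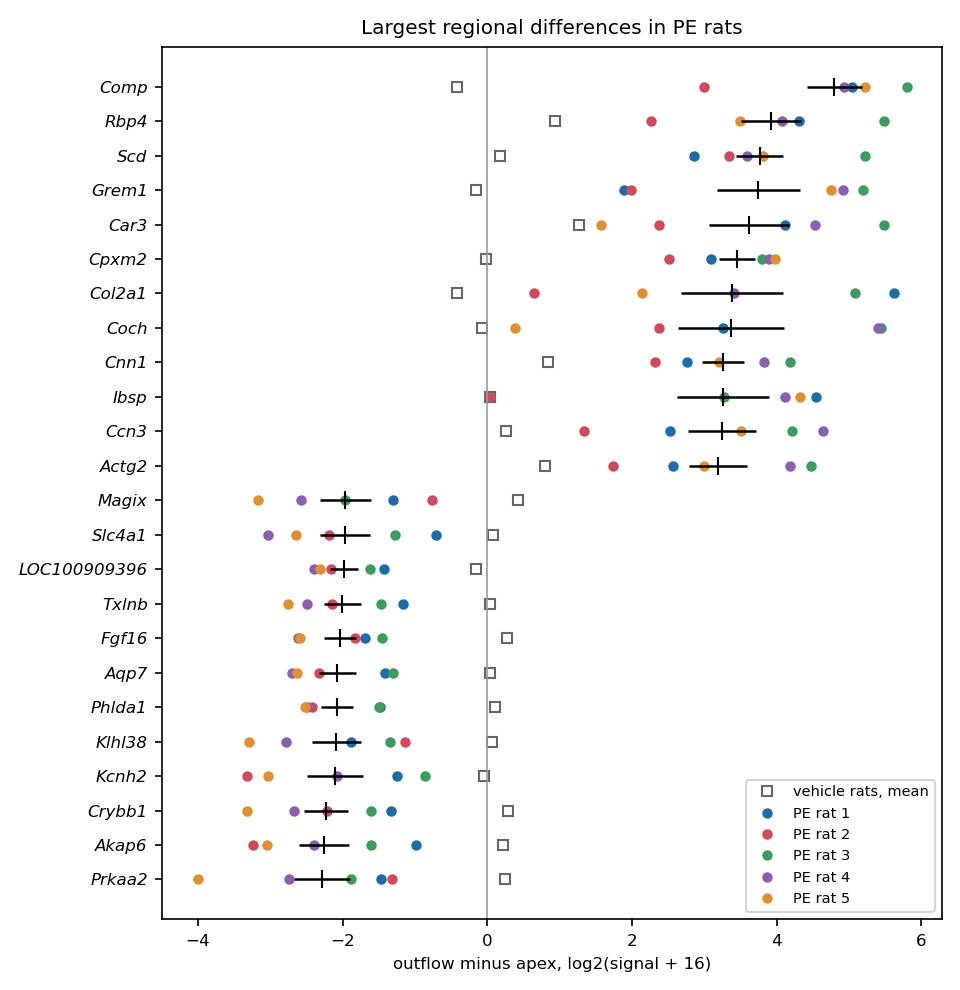
Outflow minus apex difference on the log2(signal + 16) scale for the 12 largest rises and 12 largest falls among called genes. Filled points are the 5 PE rats, the black bar is their mean with the SE of limma, and open squares are the mean of the 5 vehicle rats. Comp leads the rises at 4.80 and Prkaa2 the falls at -2.28, and rat 2 is low for Comp, Col2a1 and Ibsp.

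Collagen genes were higher in the outflow tract nearly throughout. Of 20 measured collagen chains, 17 were called higher and 0 lower, against 16.4% and 10.6% of all genes, with a median of 1.29 against 0.09 over all genes. Leaving out 1 rat gave 16 to 17 calls. Col1a1, a chain of type I collagen, the main fibre of scar, had 10440.0, 6371, 8755, 9660.3 and 9376 in the apex and 22246, 17825, 23696, 26360.0 and 23535 in the outflow tract. No outflow array reached down to the apex arrays, and the difference was 1.36 ± 0.14 (adjusted p = 0.0046), with 1.38 for its partner Col1a2. Col8a2, a network-forming collagen of vessels and cornea, differed most, at 3.03 ± 0.25 (adjusted p = 0.00347), with 346 to 532 in the apex and 1402 to 6346 in the outflow tract, and Col8a1 by 1.32. Col3a1, the fine fibre that accompanies type I, had a smaller difference of 0.61 ± 0.15 (adjusted p = 0.0339), which lost its call without any 1 of rats 1, 3, 4 and 5 (0.49 to 0.68). The 3 chains that were not called, named here after their values were seen, were the basement membrane collagens Col4a1 (0.28), Col4a2 (0.18) and Col4a4 (-0.06). Vehicle rats had a median of 0.03 over the list, and 16 of the chains were called higher in PE rats by the test of the difference.

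Matricellular and elastic proteins, which sit in the matrix around the fibres and tune growth factors, moved in the same direction. Of 36 measured members 29 were called higher and 0 lower, with a median of 1.21, and 20 to 29 were called higher with 1 rat left out. Postn, periostin of activated fibroblasts, had 783, 919.7, 958, 823 and 616 in the apex and 4101, 2814, 8262, 9082 and 5901 in the outflow tract, a difference of 2.74 ± 0.28 (adjusted p = 0.00483) without overlap. Ltbp2, a latent TGF-beta binding protein of elastic microfibrils, differed by 3.13 ± 0.18 and Ltbp3 by 1.94 ± 0.15. Fbn1, the microfibril protein fibrillin 1, differed by 1.63, and Bgn, the small proteoglycan biglycan, by 1.92. Spp1, osteopontin of macrophages and injured tissue, had 414, 323, 443, 276 and 410.4 in the apex and 4631, 259, 1397, 1914 and 2435 in the outflow tract. Rat 2 went the other way and overlapped the apex, and the difference of 2.00 ± 0.50 (adjusted p = 0.0318) kept its call in only 1 of the 5 fits that left out a rat, that without rat 2 (1.64 to 2.58 over these fits). The 7 members that were not called included the proteoglycans Dcn (-0.05) and Lum (0.37), which were named after their values were seen.

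Enzymes that trim and crosslink collagen had 15 of 20 members called higher and 0 lower, with a median of 1.16 (10 to 16 with 1 rat left out). Loxl1, a lysyl oxidase that crosslinks elastin and collagen, had 904 to 1482 in the apex and 4465 to 7009 in the outflow tract, a difference of 2.11 ± 0.15 (adjusted p = 0.00304). Pcolce, which speeds procollagen cleavage, differed by 1.78 and Cpxm1 by 1.84. Of 34 matrix proteases and inhibitors, 19 were called higher and 1 lower, with a median of 0.79. Both arms of the balance were among them: the protease genes Mmp2 (1.25) and Mmp23 (1.83), and the inhibitor Timp1 at 1.84 ± 0.20 (adjusted p = 0.00503), with 1009.6 to 1662 in the apex and 2587 to 6706 in the outflow tract. Serpinf1, an antiangiogenic serpin, differed by 1.48. Adam19, a membrane sheddase, was the 1 member called lower, at -0.54, and lost its call when any of rats 1, 3, 4 and 5 was left out (-0.58 to -0.49).

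Genes of TGF-beta, BMP and Wnt signalling, the pathways that drive and restrain fibrosis, were called higher in 23 of 40 cases and lower in 0, with a median of 0.90 (18 to 25 with 1 rat left out). Among ligands, Tgfb2 had 239, 297, 235, 293 and 364 in the apex and 487, 704, 685, 667 and 685 in the outflow tract. The groups were apart, at 1.14 ± 0.15 (adjusted p = 0.00649), although its other probe set had -0.04 and was not called. Tgfb3 differed by 1.75 ± 0.17 (adjusted p = 0.00449), whereas Tgfb1, named after its value was seen, had 0.06 and was not called. Among binding proteins and antagonists, Fst, follistatin, the antagonist of activins, differed by 2.82 ± 0.25 (adjusted p = 0.00347), beside Grem1 above. Among targets, Ccn2, connective tissue growth factor, had 4500.5, 3605, 8679, 6539 and 5692 in the apex and 15841, 15870.0, 23848, 25326 and 25047 in the outflow tract, a difference of 1.90 ± 0.16 (adjusted p = 0.00345). Ccn5, a CCN protein of smooth muscle, differed by 2.83 ± 0.23 (adjusted p = 0.00329). The difference from vehicle rats was called for 22 members of the list.

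Growth factor genes were called in both directions. Of 36 measured members, 13 were called higher and 7 lower, against 16.4% and 10.6% of all genes, with a median of 0.41. The lower count was 4 without rat 4 and 3 without rat 5. Igf1, insulin-like growth factor 1, had 5494, 3986, 3671, 4595 and 4554 in the apex and 12378, 11818, 13751, 14448 and 13274 in the outflow tract, at 1.56 ± 0.15 (adjusted p = 0.00449), and its binding protein Igfbp4 differed by 1.36. Pdgfrl, a gene related to the PDGF receptors, differed by 1.61. On the other side stood Fgf16 above and Fgf13 (-1.56 ± 0.24), an intracellular factor that modulates sodium channels. Vegfa, the main angiogenic factor made by heart muscle, had 6485, 7208, 6451, 6359 and 5324 in the apex and 3889.5, 4185, 3344, 1651 and 1526 in the outflow tract. Vegfa was lower in the outflow tract of every rat, least in rats 1 and 2, at -1.24 ± 0.23 (adjusted p = 0.0132), and lost its call without rat 5 (-1.36 to -1.06).

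Smooth muscle genes showed the highest median after cartilage genes. Of 15 measured markers of smooth muscle and myofibroblasts, 10 were called higher and 4 lower (2 without rat 1 or rat 3 and 1 without rat 4 or rat 5), with a median of 1.80, and the same number was called higher with any 1 rat left out. Itga8, an integrin subunit of smooth muscle and activated fibroblasts, had 152, 95.6, 149.7, 194 and 174 in the apex and 733, 1006, 1760.5, 2468 and 2058 in the outflow tract, at 3.16 ± 0.23 (adjusted p = 0.0032). Tpm2, the beta tropomyosin of smooth and slow muscle, had 1105 to 2291 in the apex and 4584 to 18054 in the outflow tract (2.66 ± 0.23), and Tagln, the early smooth muscle marker SM22, differed by 2.65 ± 0.29. Neither gene had overlapping groups. The members called lower included Ldb3 and Des, which are also abundant in heart muscle, at -1.75 (-1.14 in rats 1 and 3) and -0.88. In single PE rats the list's median was 1.26 to 2.40, and in single vehicle rats it was -0.48 to 0.75. The CArG box, the site of the serum response factor, which was searched after these values were seen, was in 0 of the 6 RefSeq promoter windows given for the 10 higher genes and in 158 of 11700 windows of measured genes (1.35%).

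Fibroblast markers were called higher in 13 of 18 cases and lower in 0, with a median of 1.01 (10 to 15 with 1 rat left out). The 5 not called, named after their values were seen, were Dcn, Lum, Tcf21, Dpep1 and Gsn. S100a4, a calcium-binding protein of motile fibroblasts and leukocytes, had 2023, 2136, 2218, 2405 and 2486 in the apex and 6248, 7703, 7516, 10197 and 11394 in the outflow tract. Its groups were widely apart, at 1.90 ± 0.15 (adjusted p = 0.0032), and the matrix protein gene Fbln1 differed by 1.70. Of 21 markers of cartilage, tendon and valve, 12 were called higher and 0 lower, with a median of 2.08. Beside Comp, Tnmd, tenomodulin of tendon, had 59.5, 103, 62.0, 113 and 92.6 in the apex and 404, 805, 292, 585 and 782 in the outflow tract (2.47 ± 0.18, adjusted p = 0.00304). Col9a3, a chain of cartilage collagen IX, differed by 2.24 and the membrane lectin Chodl by 2.72. The list's median was 0.86 in rat 2 and 2.09 to 2.48 in the other PE rats. The summed signal of the list was 2019 to 2421 in the apex arrays and 4755 to 15095 in the outflow arrays.

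Nerve and Schwann cell markers, which report the fibres that run with vessels and the valve ring, were called higher in 12 of 16 cases and lower in 0, with a median of 1.33 (9 to 12 with 1 rat left out). S100b, a Schwann cell marker, had 119, 166, 147, 153 and 206 in the apex and 649, 653, 1392, 977 and 948 in the outflow tract, at 2.39 ± 0.20 (adjusted p = 0.00347). Gfap, a filament of glia and non-myelinating Schwann cells, had 48.5 to 125 in the apex and 273 to 968 in the outflow tract (2.67 ± 0.24), and the myelin genes Pmp22 and Cnp differed by 1.35 and 1.36. Rat 2 had the highest signal of Gfap and of Cnp. The difference from vehicle rats was called for 12 members.

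Fat cell markers went both ways. Of 19 measured, 9 were called higher and 4 lower, with a median of 0.29. The higher count was 5 without rat 4, and the lower count was 2 without rat 3, rat 4 or rat 5. By the test of the difference from vehicle rats, 5 members were called higher and 3 lower. Adipoq, the hormone adiponectin of mature fat cells, had 26.0, 127, 53.4, 50.5 and 254 in the apex and 263, 743, 1777, 740.2 and 568 in the outflow tract. No outflow signal was below the highest apex signal, and the difference was 2.89 ± 0.46 (adjusted p = 0.00926). Vehicle rats also had 1.11 for Adipoq, not called, and the larger value in PE rats did not pass the test of the difference (1.78 ± 0.65, adjusted p = 0.0863). The lower members included Cidea and Pnpla2, lipid droplet genes, at -1.59 and -1.09 (Pnpla2 had -0.70 in rats 1 and 3). Cidea had 8103 to 9794 in the apex and 2189 to 4519.7 in the outflow tract, without overlap.

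Vessel markers were called higher in part of each list. Of 16 general endothelial markers, 5 were called higher and 0 lower, with a median of -0.18. The higher count was 3 without rat 1 or rat 3 and 2 without rat 4 or rat 5, and the lower count was 3 without rat 2. Those called higher included Vwf, the clotting factor of large-vessel and venous endothelium, with 3035, 2323, 2721, 2698 and 1859 in the apex and 7409, 5358, 9510.4, 8918 and 7406 in the outflow tract (1.60 ± 0.17, adjusted p = 0.0049). Plvap, of fenestrated and venous endothelium, differed by 2.21 ± 0.25 (adjusted p = 0.00516). The endothelial genes Tek (0.59) and Eng (0.63) were called higher too, and each lost its call without any 1 of rats 1, 3, 4 and 5. The pan-endothelial genes Pecam1, Kdr and Flt1, named after their values were seen, had 0.28, -0.64 and -0.45 and were not called. Of 7 lymphatic markers 4 were called higher and 0 lower, among them Pdpn (1.12), Reln (1.55) and the chemokine Ccl21 (1.47 ± 0.23). The other probe set of Reln had 0.59 and was not called. Lyve1, Prox1 and Flt4, named after their values were seen, were not called. In this list 1 member was lower in all 5 rats. The difference from vehicle rats was called higher for 4 members and lower for 1. Rat 2 had a median of 0.01 over the lymphatic list, and the other PE rats had 0.99 to 1.37. Of 8 pericyte markers 4 were called higher and 0 lower, led by Anpep (1.53) and Mcam (1.42), with a lower count of 2 without rat 2. Of 10 markers of epicardium and mesothelium 6 were called higher and 0 lower, with a median of 0.80 and Krt19 at 1.94 ± 0.26, and the higher count was 3 without rat 3 or rat 4 and 2 without rat 5.

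Macrophage markers were higher in most cases, with rat 2 apart. Of 25 measured, 17 were called higher and 0 lower, with a median of 0.91. The count was 11 without rat 1, 10 without rat 3, 6 without rat 4 and 7 without rat 5, and 23 without rat 2. By the test of the difference from vehicle rats, 10 members were called higher. The median was 0.27 in rat 2, 0.85 and 0.87 in rats 1 and 3, and 1.35 and 1.42 in rats 4 and 5. Lgals3, galectin 3 of activated macrophages, had 1749.9, 1833, 2336, 1995 and 2319 in the apex and 3962, 3658, 4192, 5572 and 5340.0 in the outflow tract (1.13 ± 0.15, adjusted p = 0.00668). Gpnmb and Trem2, of lipid-laden macrophages, differed by 1.49 and 1.17, and the inhibitory antibody receptor Fcgr2b by 1.43. Gpnmb was not shown to differ from vehicle rats (limma adjusted p = 0.057). Cd68, a lysosomal macrophage marker, had 535, 416, 514, 499 and 358 in the apex and 909, 611, 859, 1376 and 1126 in the outflow tract. Every outflow signal was above every apex signal, at 1.01 ± 0.20 (adjusted p = 0.0162), but the call was lost without rat 4 or rat 5 (0.86 to 1.13), and the difference from vehicle rats missed the threshold (1.04 ± 0.33, adjusted p = 0.0522).

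Mast cell markers were called higher in 6 of 11 cases, with a median of 1.16, and the higher count was 3 without rat 4 or rat 5. Cpa3, a protease of mast cell granules, had 174 to 257 in the apex and 465 to 865 in the outflow tract (1.63 ± 0.20), and Fcer1a, a chain of the IgE receptor, differed by 1.69 (1.02 in rats 1 and 3). T and NK cell markers were called higher in 2 and lower in 1 of 17 cases (higher 1 without rat 3, rat 4 or rat 5, lower 0 without rat 3, rat 4 or rat 5), neutrophil markers higher in 1 of 7 (0 without rat 1, rat 3 or rat 4), and B and plasma cell markers in 0 of 7 (1 without rat 1), against 16.4% of all genes called higher. The summed signal was 49.8 to 132 for the neutrophil list and 418 to 522 for the B cell list in the apex, and 69.0 to 255 and 429 to 860.4 in the outflow tract.

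Chemokines and cytokines had 12 of 34 members called higher and 1 lower, with a median of 0.47. The higher count was 6 without rat 3 and 4 without rat 4 or rat 5, and the lower count was 2 without rat 2. By the test of the difference from vehicle rats, 5 members were called higher and 1 lower. Cxcl13, which attracts B cells, differed by 1.79 ± 0.26 and Cxcl14 by 1.63 ± 0.20. Il1r1, the receptor of interleukin 1, differed by 1.10. Ccl2, which recruits monocytes, had 1159, 841, 733, 851 and 730.4 in the apex and 2176, 1155, 961, 2044 and 1427 in the outflow tract, overlapping, and 0.79 ± 0.17 (adjusted p = 0.0218). Cxcl1, which recruits neutrophils, had 0.67 ± 0.16 (adjusted p = 0.0259; 0.42 in rats 1 and 3). Ccl2 lost its call without rat 1, rat 4 or rat 5 (0.67 to 0.89) and Cxcl1 without rat 3, rat 4 or rat 5 (0.58 to 0.77). Neither was shown to differ from vehicle rats (adjusted p = 0.0678 and 0.113). Cxcl11, a T cell chemokine induced by interferon, went the other way, with 1220.1, 1855, 1344, 1940.1 and 832 in the apex and 614, 697, 331, 396 and 252 in the outflow tract (-1.65 ± 0.21, adjusted p = 0.00639).

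Complement and coagulation genes were called higher in 13 of 23 cases and lower in 1, with a median of 0.74, and the higher count was 8 without rat 4 or rat 5. C3, the hub of the complement cascade, had 228, 133, 108, 81.1 and 142 in the apex and 718, 478, 744, 1156 and 1426 in the outflow tract, at 2.54 ± 0.32 (adjusted p = 0.00639). C1r, a protease of the classical pathway, differed by 1.40, and Procr, the endothelial receptor of protein C, by 1.55. Masp1, a protease of the lectin pathway, was called lower on its brightest probe set (-1.67 ± 0.23) and higher on another (1.46), with 0.18 on the dimmest, not called, so no direction is given for the gene. Antigen presentation and interferon genes were called higher in 10 of 26 cases and lower in 0, with a median of 0.39. RT1-Db1, a class II histocompatibility chain, differed by 1.21 ± 0.18, and Irf8, a factor of myeloid cells, by 1.01 ± 0.16. The count was 4 without rat 1, 3 without rat 3 or rat 4 and 2 without rat 5. By the test of the difference from vehicle rats, 7 members were called higher.

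**Figure D4:**
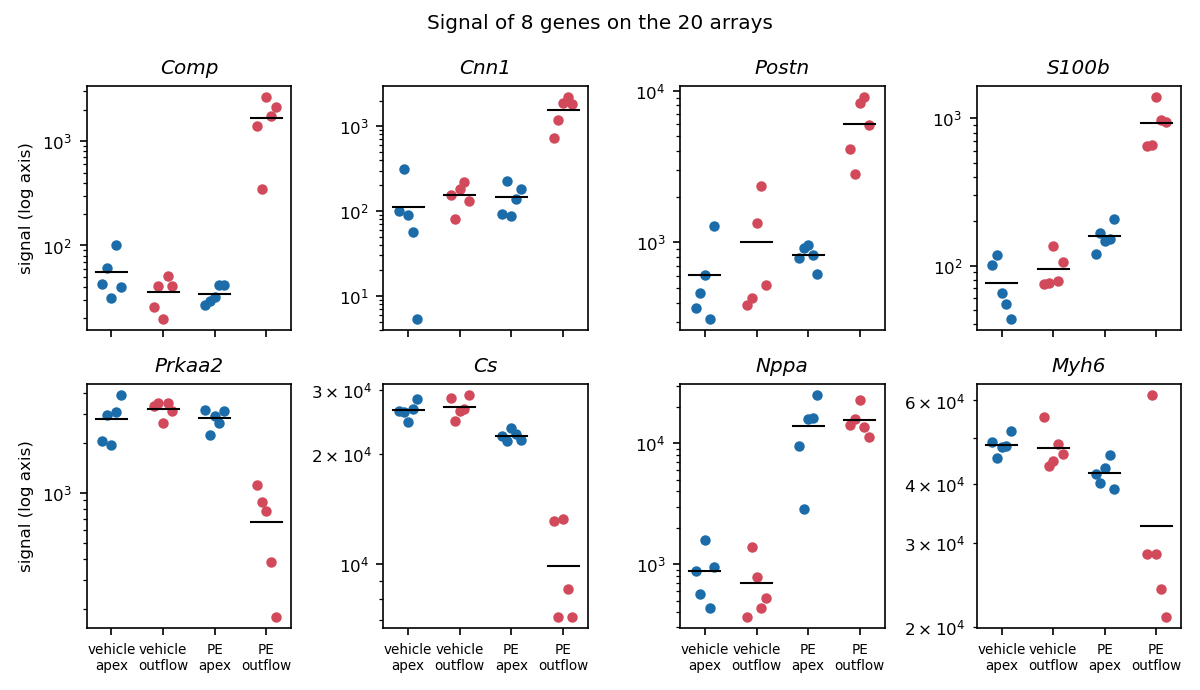
Signal of 8 genes on the 20 arrays, on log axes, with 5 arrays in each of 4 groups (blue, apex; red, outflow tract; black line, mean). Comp, Cnn1, Postn and S100b are high on the PE outflow arrays, Prkaa2 and Cs are low on them, Nppa is high in both regions of PE rats, and Myh6 is low on 4 PE outflow arrays and highest on that of rat 2.

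Genes of fatty acid use, the main fuel of heart muscle, were lower in the outflow tract nearly throughout. Of 39 measured members 36 were called lower and 0 higher, against 10.6% and 16.4% of all genes, with a median of -1.29. With 1 rat left out 24 to 37 were called lower, and vehicle rats had a median of 0.03. Ppara, the nuclear receptor that switches on this pathway, had 115, 102, 147, 64.7 and 69.2 in the apex and 12.2, 11.9, 50.6, 2.80 and 2.70 in the outflow tract. All outflow signals lay below all apex signals, at -1.97 ± 0.18 (adjusted p = 0.00378). Eci2 and Decr1, enzymes for unsaturated fatty acids, had 8334 to 9128 in the apex and 2693 to 4559 in the outflow tract for Eci2 and 9591 to 10737 in the apex and 3079 to 5472 in the outflow tract for Decr1, with differences of -1.30 ± 0.16 and -1.35 ± 0.17. Mlycd, which removes the malonyl-CoA brake on uptake into mitochondria, differed by -1.42 ± 0.18 (adjusted p = 0.00637). Pdk4, which turns glucose carbon away from the citric acid cycle, differed by -0.98 ± 0.18 (adjusted p = 0.0131) and lost its call without rat 4 or rat 5 (-1.12 to -0.89). The median was -0.83 in rat 1, -1.04 in rat 2 and -1.01 in rat 3, against -1.67 and -1.66 in rats 4 and 5.

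The citric acid cycle list had 19 of 22 members called lower and 0 higher, with a median of -1.11 (13 to 21 with 1 rat left out). Suclg1 and Sucla2, subunits of succinyl-CoA ligase, differed by -1.18 ± 0.15 and -1.18 ± 0.15 (adjusted p = 0.00638 and 0.00663), with 0.18, not called, on a dim probe set of Sucla2. Cs, citrate synthase, which starts the cycle, was named after its value was seen and differed by -1.25 ± 0.19, with 21803 to 23644 in the apex and 7139.8 to 13259 in the outflow tract. Sdha, the flavoprotein of succinate dehydrogenase, had 21630.0, 23072, 21451, 23145 and 19985 in the apex and 12354, 11275, 12000.0, 8373 and 7422 in the outflow tract, a difference of -1.11 ± 0.16, and its membrane anchor Sdhc differed by -1.29. The outflow signals of Suclg1, Sucla2, Sdha and Sdhc lay below the apex signals in every array. Of 41 measured genes of oxidative phosphorylation, 27 were called lower and 0 higher, with a median of -0.83. The count was 15 without rat 1, 41 without rat 2, 14 without rat 3 and 11 without rat 4 or rat 5. Rat 2 had a median of -0.06 over this list and the other rats -0.63 to -1.24. Ndufs1, a core subunit of complex I, had 18230.0, 18924, 17777, 18524 and 16206 in the apex and 10080.0, 8217, 9002, 5417 and 4836 in the outflow tract (-1.31 ± 0.19, adjusted p = 0.00763). Uqcrc2, of complex III, differed by -1.03 ± 0.16, and by -2.51 on its other probe set. The element TCAAGGTCA of estrogen-related receptors, which govern many of these genes, was in 1 of 74 RefSeq promoter windows of the called genes of the 3 lists of fatty acid, citric acid cycle and oxidative phosphorylation genes, that of Sdhd, after its start, and in 25 of 11700 windows of measured genes (0.214%).

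Glucose genes were called lower in 15 and higher in 3 of 31 cases, against 10.6% and 16.4% of all genes, with a median of -0.64. Their lower count was 6 without rat 4 and 8 without rat 5. Slc2a4, the insulin-regulated glucose transporter, had 8820.5, 8439, 8099, 8573 and 9083 in the apex and 3822, 3979.7, 3634, 1656 and 1742 in the outflow tract, at -1.63 ± 0.26 (adjusted p = 0.00889). Eno3, the muscle enolase, differed by -1.48 ± 0.22, and Gys1, the muscle glycogen synthase, by -1.54 ± 0.25 (-0.96 in rats 1 and 3). Genes that went the other way included Aldoc, the aldolase of brain (1.31 ± 0.14), and Slc16a3, a lactate exporter of glycolytic cells (1.59 ± 0.28). Of 19 genes of energy shuttles and AMPK 10 were called lower and 0 higher, with Slc25a11 and Slc25a12, carriers of the malate-aspartate shuttle, at -1.19 and -1.16. The lower count of that list was 6 without rat 1, 3 without rat 4 and 4 without rat 5. Beside Prkaa2, the other catalytic subunit gene Prkaa1, named after its value was seen, had 0.33 and was not called.

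Contraction and calcium handling genes had medians below 0 in 4 of the 5 rats. Of 26 measured members 10 were called lower and 0 higher, with a median of -0.77. The count was 6 without rat 1 or rat 3, 25 without rat 2 and 4 without rat 4 or rat 5. The median was 0.22 in rat 2 and -0.66 to -1.42 in the others. Ldb3, a Z-disc protein, had 15951, 14221, 13252, 15494 and 14390.0 in the apex and 6982, 4889, 6232, 2869 and 2509.6 in the outflow tract (-1.75 ± 0.26, adjusted p = 0.00788; -1.14 in rats 1 and 3). Trdn, triadin of the calcium release complex, had 2789 to 3729.9 in the apex and 515 to 1923 in the outflow tract (-1.71 ± 0.29), and Cacna1c, the pore of the L-type calcium channel, differed by -1.12 ± 0.17. Both genes were lower in every rat. Asph, a gene of several products that include junctin, was called lower on 2 probe sets (-1.41 on the brightest, -1.85) and higher on another 2 (0.75 and 0.52), so no single direction is given for it. Ryr2, the calcium release channel, differed by -1.16 ± 0.25 (-0.69 in rats 1 and 3) and lost its call without rat 4 or rat 5 (-1.29 to -0.97).

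For Myh6, the fast heart myosin, rat 2 went against the other rats. Its signal was 42090.0, 40145, 43207, 46043 and 39146 in the apex and 28461, 61490.0, 28546, 24033 and 20969 in the outflow tract. Rats 1, 3, 4 and 5 were below all apex arrays and rat 2 was above all of them, and the difference of -0.48 ± 0.25 was not called (adjusted p = 0.219). Without rat 2 it was -0.75 and called. A dimmer probe set of Myh6 had a called difference of -2.75, and one of Myh7, the slow myosin, -1.89, beside -0.43, not called, on the brightest probe set of Myh7. The pump gene Atp2a2 had -0.55 (95% interval -1.13 to 0.03) and Gja1, the main gap junction protein, -0.60, neither called, and each had another probe set called lower, at -0.55 and -1.82. Without rat 2 both brightest probe sets were called, at -0.81 and -0.82. Ventricular markers were thus lower on some probe sets and not called on others: of 11 heart muscle markers 3 were called lower, and the count was 1 without rat 1 or rat 3, 11 without rat 2 and 0 without rat 4 or rat 5. The summed signal of that list was 345967 to 401304 in the apex and 176999 to 474407 in the outflow tract.

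Wall load is followed by the natriuretic peptides. Nppa, atrial natriuretic peptide, the hormone of stretched muscle, had 9457, 2888, 15897, 16176 and 24985 in the apex and 14289, 16017, 22756, 13579 and 11397 in the outflow tract. The groups overlapped fully, and the difference of 0.44 ± 0.46 was not called (adjusted p = 0.553, 95% interval -0.66 to 1.54). The apex signal of rat 2 was the lowest of all, and without rat 2 the difference was -0.07. In vehicle rats Nppa had 881 ± 448 in the apex and 699 ± 415 in the outflow tract (mean ± SD, n = 5), below every PE array. Nppb, brain natriuretic peptide, had 8895, 5716, 11766, 13026 and 10313 in the apex and 8272, 6927, 7646, 4844 and 5432 in the outflow tract. The difference was -0.56 ± 0.26 (limma adjusted p = 0.172, interval -1.17 to 0.05), not called, and -0.36 in rats 1 and 3. Acta1, skeletal alpha actin, had -0.41, and Ankrd1, a stretch-induced nuclear protein, -0.34, neither called, while another probe set of Ankrd1 was called at -0.84. Of 19 genes of the stretch and fetal programme 4 were called lower and 2 higher, with a median of -0.49 (-0.77 without rat 2), against 10.6% and 16.4% of all genes. The lower count was 10 without rat 2 and 0 without rat 4 or rat 5, and the higher count was 1 without rat 1, rat 3, rat 4 or rat 5. Xirp1, a protein of the intercalated disc, differed by -1.24 ± 0.25 and Rcan1, a target of calcineurin, by -0.98 ± 0.18. Both lost their calls without rat 4 or rat 5 (-1.43 to -1.04 and -1.14 to -0.86). Actn1, the non-muscle alpha actinin, went the other way, with 970.5 to 1242 in the apex and 2606 to 6595 in the outflow tract (1.89 ± 0.24, adjusted p = 0.00649).

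Ion channel genes were called lower in 13 and higher in 1 of 24 cases, with a median of -0.83. The count of lower calls was 7 without rat 1 and 2 without rat 4 or rat 5, and 16 without rat 2. Beside Kcnh2, Kcnd2, a pore of the transient outward current, had 595, 532, 585, 667 and 758 in the apex and 214, 396, 240.1, 68.5 and 118 in the outflow tract. The groups were apart, at -1.72 ± 0.37 (adjusted p = 0.0204), and the call was lost without rat 1, rat 4 or rat 5 (-2.05 to -1.40). Kcnj3, a subunit of the acetylcholine-gated channel, differed by -1.12 ± 0.19. Gja5, a connexin of the conduction system and arteries, was the 1 member called higher, at 0.74 ± 0.17, and lost its call when any of rats 1, 3, 4 and 5 was left out (0.60 to 0.83).

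Receptor and messenger genes were called lower in 8 and higher in 3 of 23 cases, against 10.6% and 16.4% of all genes. The lower count was 5 without rat 4, and the higher count was 1 without rat 1, rat 3, rat 4 or rat 5. Adcy5, an adenylyl cyclase of heart muscle, differed by -1.19 ± 0.19, although its dim second probe set had 0.05. Chrm2, the muscarinic receptor of the heart, differed by -1.23 ± 0.20 and Pde2a, a phosphodiesterase stimulated by cGMP, by -0.89 ± 0.15. Agtr1a, the main angiotensin II receptor, went the other way, with 243, 184, 156, 238 and 281 in the apex and 612, 353, 778, 1235 and 1182 in the outflow tract. The groups did not overlap, at 1.73 ± 0.24 (adjusted p = 0.0074), and the second probe set was called too, at 1.22. Edn1, endothelin 1, had 0.95 ± 0.26 (adjusted p = 0.0405) and lost its call when any of rats 1, 3, 4 and 5 was left out (0.83 to 1.24).

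Of 44 transcription regulators measured, 7 were called higher and 7 lower, with a median of -0.18, and 30 were not called. The higher share was near that of all genes (16.4%). The higher count was 4 without rat 1 and 3 without rat 3, rat 4 or rat 5 and the lower count 4 without rat 1, 1 without rat 4 and 2 without rat 5. Nkx2-5, a factor of heart muscle identity, had 2601, 2621, 2433, 2607 and 2220.0 in the apex and 1082, 1183, 938, 488 and 415 in the outflow tract (-1.70 ± 0.24, adjusted p = 0.00754), and Gata5 differed by -1.05 (called in 4 of the 5 fits that left out 1 rat, not without rat 4, -1.13 to -0.89). On the other side, Meox1, a mesenchymal homeobox factor, had 53.3 to 129 in the apex and 192 to 379 in the outflow tract (1.54 ± 0.16), and Msx1 differed by 1.09 ± 0.20. Of 12 atrial markers 4 were called higher and 3 lower (2 without rat 4 higher, 1 without rat 4 or rat 5 lower), against 16.4% and 10.6% of all genes. The higher ones included the nuclear receptors Nr2f2 (1.26 ± 0.18, with 0.41 and -0.41 on dimmer probe sets, not called) and Nr2f1 (0.84), and the lower ones the channels Kcnj3 and Kcnj5 (-1.46, and -0.76 in rats 1 and 3, not called without rat 4 or rat 5, -1.71 to -1.16). The defining atrial genes Myl7 and Sln, named after their values were seen, had -0.34 and -0.43 and were not called.

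Of 34 genes of oxidative stress and heat shock 10 were called lower and 3 higher, against 10.6% and 16.4% of all genes. The lower count was 5 without rat 4 or rat 5 and the higher count 1 without rat 1, rat 4 or rat 5 and 5 without rat 2. The mitochondrial antioxidant Sod2 had 8547, 9103, 7735, 8747 and 7586 in the apex and 5161, 3763, 3663, 3140.2 and 2944 in the outflow tract (-1.18 ± 0.16), Prdx3 differed by -1.32, and Cybb, the oxidase of phagocytes, by 1.12 in the other direction. Of 33 immediate early and circadian genes 5 were called higher and 0 lower, a higher share near that of all genes (16.4%), and the higher count was 2 without rat 1, rat 4 or rat 5. Fos had 221, 241, 1291, 641 and 177 in the apex and 820.3, 587, 2034, 1675 and 565 in the outflow tract. It was higher in the outflow tract of each rat, although the groups overlapped, since rat 3 had a high signal in both regions, and 1.33 ± 0.19 was called (adjusted p = 0.00768). The same fit without the rat as a block gave an adjusted p of 0.113, and Fos was not called there. Of 33 cell cycle genes 8 were called higher, against 16.4% of all genes, among them the replication factor Mcm6 (0.94 ± 0.13). Their count was 2 without rat 1, 4 without rat 3 and 1 without rat 4 or rat 5. Of 22 ribosomal protein genes 3 were called higher and 0 lower, with a median of 0.21 (0.04 in rats 1 and 3), again near the share of all genes, and the higher count was 1 without rat 1, rat 4 or rat 5. Blood markers were called higher in 2 and lower in 1 of 10 cases, near the shares of all genes (16.4% and 10.6%). Their higher count was 0 without rat 1 or rat 5 and 1 without rat 3 or rat 4. Hbb, a beta globin, had 186 to 407 in the apex and 642 to 4529 in the outflow tract. Its call was lost without rat 1, rat 3 or rat 5 (1.42 to 2.25). Skeletal muscle markers were called higher in 2 and lower in 1 of 17 cases, both below the shares of all genes (16.4% and 10.6%). Their higher count was 1 without rat 1, rat 2, rat 3 or rat 4 and 0 without rat 5. Their lower count was 0 without rat 1, rat 3, rat 4 or rat 5 and 2 without rat 2.

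**Figure D5:**
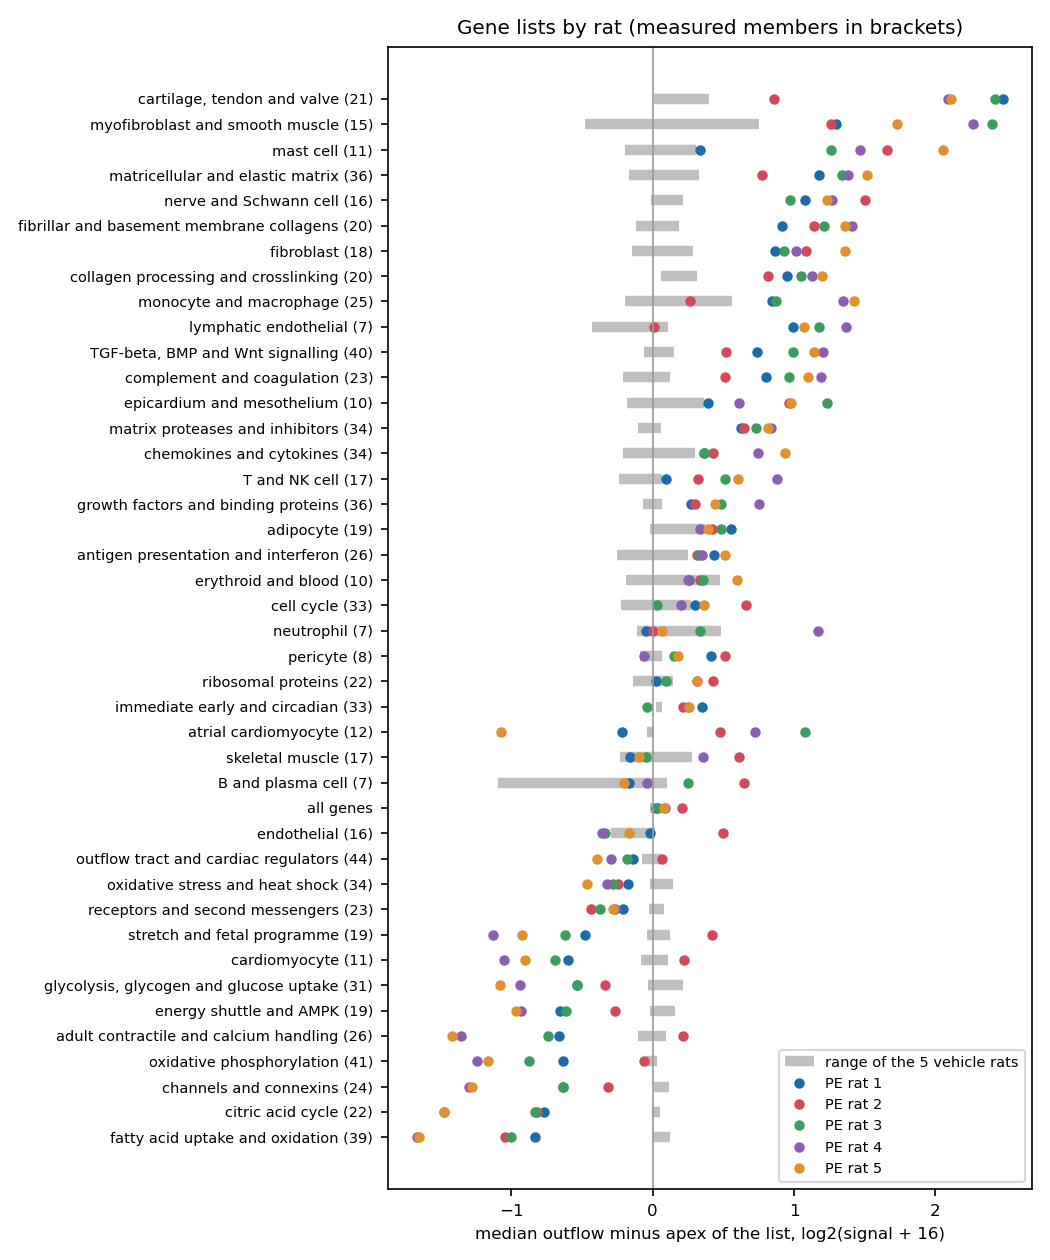
Median outflow minus apex difference over the measured genes of each list (number in brackets), on the log2(signal + 16) scale. Points are the 5 PE rats and grey bars the range of the 5 vehicle rats. Cartilage, smooth muscle, mast cell and matrix lists lie at the top, fatty acid, citric acid cycle and channel lists at the bottom, and rat 2 lies on the positive side for the contractile (0.22), heart muscle (0.22) and stretch (0.42) lists.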

How the data were processed

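Whole-transcriptome Affymetrix arrays were hybridised with RNA of right ventricle pieces, 5 micrograms per sample per the labels. The deposited table holds linear signal intensity, which the authors had scaled to a common trimmed mean on every array; the software is not given in the sources used here. Of 31099 probe sets, 57 control probe sets were left out, and 31042 were tested. Symbols came from the platform annotation: 20826 probe sets had 1 symbol, 436 several and 9780 none, and only those with 1 symbol name a gene. From the deposited intensities log2(signal + 16) was computed and the outflow minus apex difference taken within each replicate number. limma 3.58.1 in R 4.3.3 tested these 5 differences against 0 in PE rats, and in vehicle rats, and compared the 10 differences between treatments, two-sided, with Benjamini-Hochberg adjustment over all 31042 probe sets. The fits were tested on simulated data. Arrays give no read depth, and their number limits the precision.

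The labels do not state that equal replicate numbers are 1 animal. Samples with the same number deviated together from their group means, at r of 0.181 to 0.283 in PE rats and 0.181 to 0.276 in vehicle rats over 12310 brighter probe sets, and 10 of 10 samples correlated best with their own number. The members, the 23 process lists and the 18 marker lists were chosen with earlier results of these data known. Named genes are the 12 largest rises and falls among called genes with all rats in 1 direction and a mean signal of at least 100 in the brighter region, up to 4 called members of each list by p and up to 2 against its majority, and a set of index genes; others are said to be named after their values were seen. List medians and counts describe the lists, and no set test was made.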

Additional observations from a re-analysis of the deposited data

Results flagged for a closer look

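The regional difference itself differed between PE and vehicle rats for many of the named genes, by limma on the 10 paired differences (adjusted p under 0.05; 5121 probe sets in all). The values here are the difference in PE rats minus that in vehicle rats on the log2(signal + 16) scale. Among the 12 largest rises it was 5.22 for Comp, 3.90 for Grem1, 3.80 for Col2a1, 3.59 for Scd, 3.47 for Cpxm2, 3.45 for Coch, 3.23 for Ibsp, 2.996 for Rbp4, 2.99 for Ccn3, 2.42 for Cnn1 and 2.40 for Actg2, while Car3 did not pass. Among the 12 largest falls it was -2.53 for Prkaa2, -2.52 for Crybb1, -2.47 for Akap6, -2.39 for Magix, -2.31 for Fgf16, -2.19 for Phlda1, -2.15 for Klhl38, -2.11 for Aqp7, -2.06 for Kcnh2, -2.05 for Slc4a1, -2.04 for Txlnb and -1.84 for LOC100909396. Among the index genes of matrix and growth signals it was 2.86 for Spp1, 2.67 for Ccn5, 2.21 for Postn, 2.00 for Ccn2, 1.90 for Timp1, 1.28 for Tgfb2 and 1.03 for Col1a1. Among those of muscle it was -1.81 for Kcnd2, -1.24 for Vegfa and -1.12 for Pdk4.

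PE rat 2 stood far from the other 4 rats in 3 of the 46 genes and 2 of the 42 gene groups checked (all genes together counted as a group), where chance marks about 1 in 20. Its difference was 0.039 for Ibsp, against rises in the other rats, and 0.61 for Myh6 and 0.66 for Ankrd1, against falls in the other rats. Its median was 0.0064 over the lymphatic markers and 0.86 over the cartilage, tendon and valve markers. The outflow array of rat 2 had the highest GAPDH ratio, 6.12. With that ratio as a covariate, the difference over the PE rats was 4.77 for Ibsp, -0.98 for Myh6 and -0.80 for Ankrd1. Without rat 2 it was 4.06, -0.75 and -0.58. The other PE outflow arrays had ratios of 1.70 to 2.34, so the slope of the covariate rests mostly on rat 2. That fit therefore moves away from rat 2 by construction and cannot show whether RNA length lies behind its values. The cause of the values of rat 2 was not tested.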

How the results depend on the processing

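The count of 6477 called probe sets in PE rats was 3530 with the GAPDH ratio as a covariate, whose slope rests mostly on rat 2. The count was 0 with rats 1 and 3 only (6648 at an unadjusted p under 0.05). It was 286 (264 higher, 22 lower) when limma tested each change against 1.5-fold in place of 0. This asks that a change exceed 1.5-fold beyond its error, which is stricter than a mean of that size. It ran from 2415 to 7443 when 1 rat was left out. It was 7391 with no replicate block over the 10 arrays, 8924 over all 20, and 8019 with the replicate as a random block. Median centring moved the share of higher calls from 57.3% to 43.2% and the median of all probe sets from 0.04 to -0.05. In vehicle rats 1 probe set was called with no replicate block over the 10 arrays, with a random replicate block and with a pseudocount of 1, and none otherwise. The 5121 probe sets whose regional difference differed between treatments became 434 with PE rats 1 and 3 only, 5567 with no replicate block, and 3232 to 6025 with 1 rat left out. Of 143 called genes named here (Tek and Eng were not among those counted), none reversed on its own probe set. Of these, 20 lost their call with the covariate, 95 with the test against 1.5-fold and 143 with rats 1 and 3 only. With no replicate block over 10 arrays 4 lost it (Fos, Cxcl1, Edn1 and Adam19). The number was 3 with a pseudocount of 1 and 2 with quantile normalization. Without rats 1 to 5 in turn it was 9, 0, 9, 19 and 18. Dimmer probe sets of the same gene reversed the sign for Col2a1 (-0.15), Tgfb2 (-0.041), Nr2f2 (-0.41), Asph (0.75 and 0.52), Masp1 (0.18 and 1.46), Adcy5 (0.052) and Sucla2 (0.18). Nppa, not called, turned to -0.43 with the covariate and ran from -0.068 (without rat 2) to 0.83 with 1 rat left out. The causes were not tested. An exact sign-flip test over 5 pairs cannot give a p under 0.0625.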
